A study of Caenorhabditis elegans with 2 samples.

Results

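Binding of BLMP-1 was examined at 7 genes of the C. elegans molt, namely mlt-8, mlt-9, mlt-10, mlt-11, bli-5, acn-1 and xrn-2, out of 19973 annotated protein-coding genes. The genes were chosen by name, and each was given a window made of its gene body and the 3 kb upstream of its start. Whole larvae of the first larval stage (L1), of mixed sex, were used for chromatin immunoprecipitation and sequencing (ChIP-seq). They belonged to strain OP109, genotype unc-119(ed3) III; wgIs109, in which the wgIs109 insertion supplies eGFP-tagged BLMP-1. There was 1 group of 2 biological replicates and no other condition or strain, so no comparison between conditions could be made. Nothing in the labels states the promoter or copy number of the insertion, and whole animals give no information on the cell type in which a site was bound.

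At each molt a larva makes a new cuticle beneath the old one, loosens the old one and sheds it. The epidermis secretes matrix proteins, proteases and protease inhibitors in turn to do so, and many of their genes are switched on once per larval stage. BLMP-1 is a zinc-finger transcription factor related to vertebrate Blimp-1 that acts in the epidermis and in the timing of larval development, and it is known to open chromatin at genes with cyclic expression. Of the 7 genes, mlt-11 encodes a large secreted protein with Kunitz-type protease inhibitor domains, and bli-5, whose mutants have a blistered cuticle, encodes a protein described as Kunitz-type. The mlt-8, mlt-9 and mlt-10 genes are named for larvae that fail to shed the old cuticle when the gene is knocked down. ACN-1 is a relative of angiotensin-converting enzyme that lacks the catalytic zinc site, and XRN-2 is a nuclear 5′-to-3′ exoribonuclease whose loss also disturbs molting. XRN-2 is thus neither an inhibitor nor a secreted protein.

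The measurements were the authors' peak lists on genome build ce11. The optimal list held 8751 peaks that passed the authors' filter for irreproducible discovery rate (IDR). The pooled list held 30000 entries called on both replicates together, and is labelled as peaks and background given as input to IDR. Replicates 1 and 2 alone had 27310 and 30000 peaks. A peak's rank is its place by the authors' signal within its list, with 1 the strongest. No source used here gives the scale of this signal. It ranged between 62.0 and 4255 in the optimal list and was compared only among peaks of the same list. With no read depth at hand, intervals that need it are left out.

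Shown first are the bases around the strongest summit of each gene, because the results below turn on these sites. They are joined by the summit of mlt-11 nearest its start, which holds an exact copy of the motif AAAGTGAAA, the core sequence associated with BLMP-1. Each run reaches 75 bp to either side of the summit, is read 5′ to 3′ on the strand of the gene, and has in capitals every stretch that matches AAAGTGAAA on either strand with at most 1 mismatch. Overlapping matches form 1 longer stretch in capitals. The bases are those of the RefSeq genome WBcel235, the assembly of ce11. The bli-5 run comes from the pooled list, since that gene had no optimal peak, and was cut to 128 bases at the transcript start. The mlt-11 sites lie at chrV:20665075-20665225 and chrV:20667028-20667178 on the plus strand. The acn-1 and mlt-9 sites lie at chrX:5099079-5099229 and chrX:15105208-15105358 on the minus strand. The mlt-8 site lies at chrII:574142-574292 and the bli-5 site at chrIII:13429769-13429896, both on the minus strand, and those of mlt-10 and xrn-2 at chrII:544492-544642 and chrII:14154476-14154626 on the plus strand.
mlt-11, 2055 bp upstream: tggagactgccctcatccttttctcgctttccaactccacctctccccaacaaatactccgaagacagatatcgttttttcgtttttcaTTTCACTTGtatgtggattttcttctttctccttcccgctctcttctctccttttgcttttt
mlt-11, 102 bp upstream: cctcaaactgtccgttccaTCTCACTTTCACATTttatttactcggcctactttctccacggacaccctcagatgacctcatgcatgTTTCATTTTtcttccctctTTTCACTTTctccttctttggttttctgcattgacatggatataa
acn-1, 2087 bp upstream: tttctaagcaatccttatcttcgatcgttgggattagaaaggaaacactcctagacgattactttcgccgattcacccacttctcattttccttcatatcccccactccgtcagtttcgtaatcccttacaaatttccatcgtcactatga
mlt-9, 2514 bp inside the gene: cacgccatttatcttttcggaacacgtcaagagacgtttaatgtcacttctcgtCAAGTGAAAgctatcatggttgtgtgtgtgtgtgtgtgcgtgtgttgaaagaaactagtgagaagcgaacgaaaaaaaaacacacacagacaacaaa
mlt-8, 2107 bp upstream: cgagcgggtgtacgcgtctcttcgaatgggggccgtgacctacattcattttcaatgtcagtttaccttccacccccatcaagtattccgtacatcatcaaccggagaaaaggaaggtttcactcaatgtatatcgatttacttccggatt
mlt-10, 2138 bp upstream: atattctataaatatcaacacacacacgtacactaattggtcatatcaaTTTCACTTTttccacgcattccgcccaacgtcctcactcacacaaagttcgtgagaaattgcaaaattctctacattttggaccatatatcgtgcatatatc
xrn-2, 1217 bp upstream: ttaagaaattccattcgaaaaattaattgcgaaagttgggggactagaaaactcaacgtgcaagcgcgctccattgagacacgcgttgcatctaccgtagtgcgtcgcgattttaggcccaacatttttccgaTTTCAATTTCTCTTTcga
bli-5, 53 bp upstream: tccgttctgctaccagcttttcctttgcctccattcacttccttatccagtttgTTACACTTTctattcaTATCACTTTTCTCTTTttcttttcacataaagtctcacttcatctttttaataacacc

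BLMP-1 peaks lay in the windows of 6 of the 7 genes, all but bli-5, and were spread unevenly among them. The optimal list placed 21 summits there: 7 at mlt-9, 5 at acn-1, 4 at mlt-11, 3 at mlt-8, and 1 each at mlt-10 and xrn-2. Of all protein-coding genes, 35.9% had an optimal summit in the same kind of window. The windows of the 7 genes ran from 5129 to 14333 bp against a median of 5027 bp for all genes, and among the 8738 genes with windows in that range 42.4% had an optimal summit. At least 3 summits were found at 4 of the 7 genes and at 4.37% of all protein-coding genes, a share not matched for window length. The 4 genes became 2 with 1.5 kb upstream and 2 with peaks among the strongest of both replicates. From 1500 bp upstream to 500 bp downstream of any start, 1 gene was left. Without replicate 2, that is with the 8751 strongest peaks of replicate 1 alone, the windows held 11 summits and 2 genes, mlt-9 and acn-1, had at least 3, and without replicate 1 they held 23 and 4 genes did. The windows of the 7 genes together spanned 63.6 kb and held 3.3 summits per 10 kb, where the whole genome held 0.873. The genome figure includes sequence outside such windows, and the density over the windows of all protein-coding genes is not given here. These counts describe the sites. No chance test was made of them, since the genes were picked with earlier results of these data in view.

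The 21 sites were mostly upstream and mostly in the stronger part of the list. There were 16 summits upstream of a gene start and 5 inside a gene, and 17 were among the stronger 4375 peaks. Their ranks ran from 73 to 7633 with a median of 2266, against 4376 for the whole list, and their signals from 77.0 to 1343 with a median of 247, against 147. The −log10 q-value was at its ceiling of 3.83 for 14 of the 21, against 38.9% of all optimal peaks, so it does not order those 14. By annotation, 10 summits were intergenic, 5 lay in introns, 5 in exons of non-coding genes and 1 in the 3′ UTR of a neighbour, and no summit lay in a coding exon. The shares of all optimal peaks by place are not given here. The counts by place therefore describe the 21 sites and do not set them apart from other peaks.

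**Figure D1:**
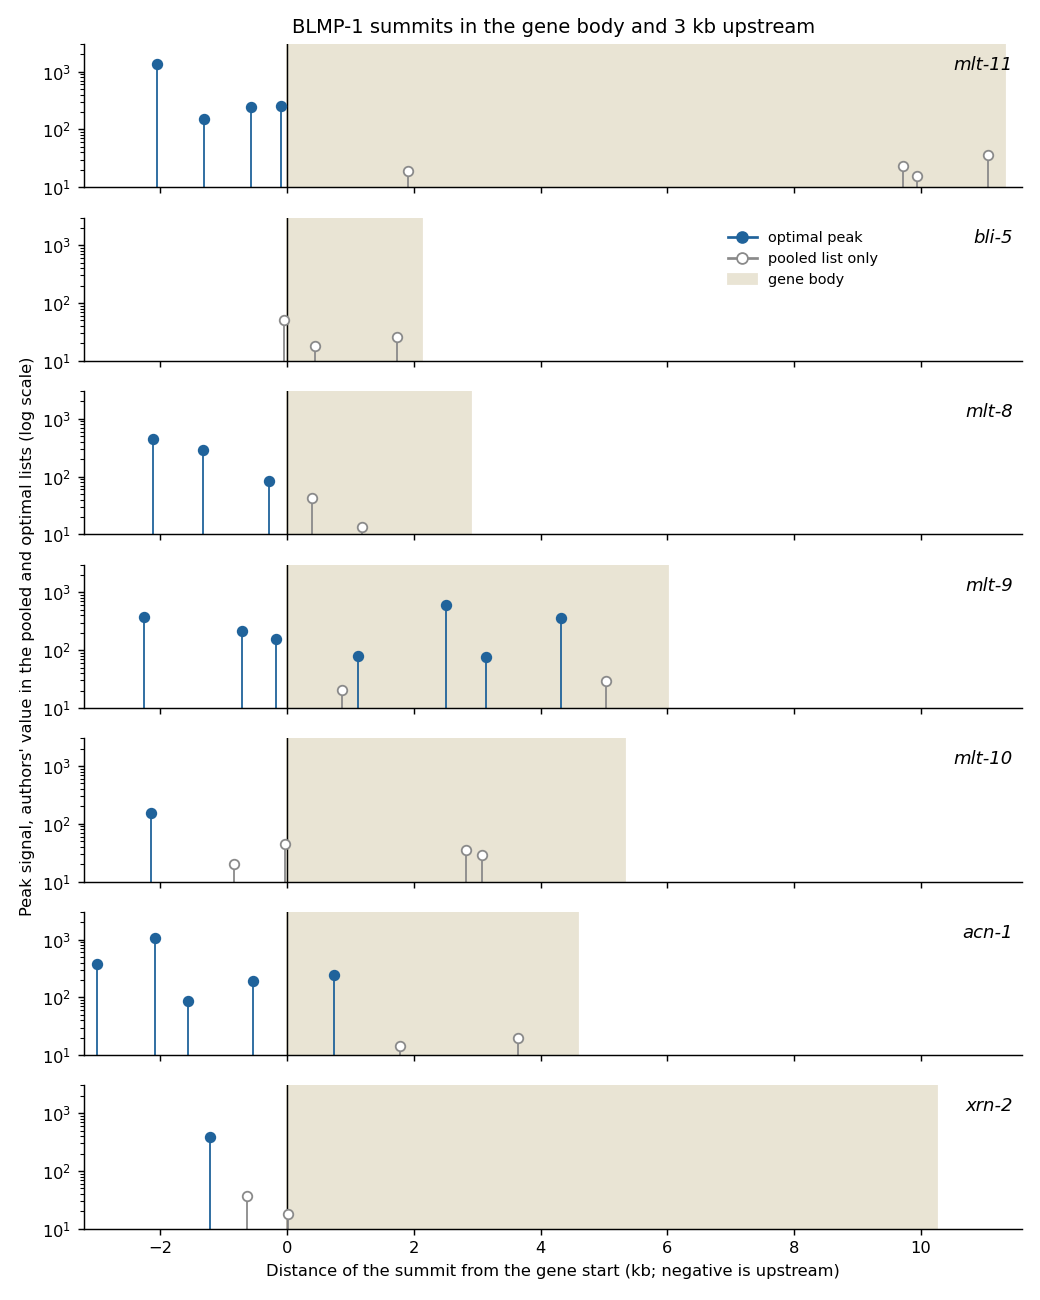
Position of each BLMP-1 summit relative to the gene start (kb, x axis) against its peak signal (y axis, log scale) at the 7 genes; filled points are optimal peaks, open points peaks of the pooled list alone, and the shaded span is the gene body. The 4 optimal sites of mlt-11 all lie upstream, mlt-9 has 4 of 7 inside the gene, and bli-5 has open points only.

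Of the genes described as Kunitz-type, mlt-11 had the strongest site of all 7 genes and bli-5 had none in the optimal list. The 4 mlt-11 summits lay in the 5168 bp between its start and the upstream gene W01F3.2. That spacer carried the top site 2055 bp upstream (rank 73, signal 1343, V 20664793 to 20665422, intergenic). In replicate 1 the same base was the summit of the peak of rank 160, and in replicate 2 of the peak of rank 64. Of all protein-coding genes, 0.461% had an optimal summit ranked as high in their window. The mlt-11 window, at 14333 bp, was the longest of the 7, and this share was not matched for window length.

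The other 3 mlt-11 sites were weaker and rested on replicate 2. They lay 1303 bp upstream (rank 4296, signal 150), 563 bp upstream (rank 2266, signal 247) and 102 bp upstream (rank 2107, signal 259). Replicate 2 listed them at ranks 3962, 1183 and 2116, and replicate 1 had no summit within 100 bp of any of them. The gene body, 11.33 kb long, had no optimal summit. Its 4 pooled summits ranked 11884 or weaker, and none was listed by both replicates.

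At bli-5, whose gene body spans 2.13 kb on chromosome III (13427640 to 13429768, minus strand), the optimal list was empty. The pooled list held 3 summits. The strongest was 53 bp upstream (rank 9826, signal 50.8), beyond the 8751 peaks of the optimal list, and the others lay 445 bp and 1730 bp inside the gene (ranks 21178 and 15236). Replicate 2 listed the promoter site at rank 7914 and replicate 1 did not list it. The replicate lists had 2 summits each in the window, none of them at a shared position. The optimal summit nearest to the bli-5 start was 3526 bp downstream, past the end of the gene, at rank 4653.

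The label of protease inhibitors was checked on the protein sequences translated from the gene models. A common Kunitz signature (F, 3 residues, G and C, 6 residues, F or Y, 5 residues, C) occurred 8 times in the longest MLT-11 model of 3129 residues and 0 times in BLI-5 of 202 residues. No match says only that this pattern is not in the model. The signature was found in 29 other genes, of which 8 (27.6%) had an optimal summit in the window. The strongest of these were K11D12.11 and its neighbour K11D12.7, which share a peak at rank 1508, then piit-1 and tag-290, which share one at rank 2539. None of the 29 had 3 or more summits. Their share lay below the 35.9% of all genes, and with 5 kb upstream in place of 3 kb it was 14 of 29 (48.3%), above the 42.6% of all genes. Neither difference was tested or matched for window length. With 3 kb upstream the median window was 6491 bp for the 29 genes and 5027 bp for all genes.

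The 3 other mlt genes differed in number and place of sites. At mlt-9 (X 15101786 to 15107797, minus strand), 7 summits were spread over both sides of the start. At least as many were found at 0.275% of protein-coding genes, a share not matched for window length. The strongest lay in its intron sequence 2514 bp past the start (rank 498, signal 608, X 15105043 to 15105476), at rank 657 in replicate 1 and 468 in replicate 2. A second strong intronic site lay 4325 bp past the start (rank 1243, signal 360), at ranks 2784 and 963 in replicates 1 and 2. The start nearest to that site was that of dhhc-1, 3053 bp away.

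Upstream of mlt-9, the leading site was 2257 bp away (rank 1196, signal 369), in the 3′ UTR of R07D5.2, the next gene upstream, and both replicates listed it, at ranks 2389 and 936. A site 716 bp upstream (rank 2806, signal 214) ranked 2282 in replicate 1 and 3098 in replicate 2, one of the few that stood higher in replicate 1. The site 173 bp upstream (rank 4099, signal 156) and the one 3143 bp inside the gene (rank 7633, signal 77.0) were listed by replicate 2 alone, at ranks 2355 and 4401. The site 1124 bp inside the gene (rank 7477, signal 79.2) was listed by both replicates, but below their 8751 strongest peaks, at ranks 10315 and 11769.

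At mlt-8 (II 569210 to 572110, minus strand) all 3 optimal summits lay in the 2813 bp before the upstream gene W08F4.7, and their strength rose with distance from the start. The farthest, 2107 bp upstream in an exon of the non-coding gene W08F4.17, ranked 891 (signal 446, II 574081 to 574388) and had ranks of 1064 and 830 in replicates 1 and 2. The middle site, 1321 bp upstream, ranked 1770 (signal 289) and was far weaker in the first replicate, at rank 5935, than in the second, at rank 1196. The site closest to the start, 280 bp upstream, ranked 7289 (signal 82.8) and was listed by replicate 2 only, at rank 5731.

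At mlt-10 (II 546705 to 552032, plus strand) a single optimal summit lay 2138 bp upstream (rank 4258, signal 151, II 544484 to 544634), within an intron of T27A1.3, whose annotated span runs past the mlt-10 start. Both replicates listed it, at ranks 5848 and 3904. No optimal summit lay nearer the start. A pooled summit 34 bp upstream (rank 10530, signal 45.0) was listed by replicate 2 at rank 8281 and had no counterpart in replicate 1. Inside the gene the pooled list had 2 more, 2831 and 3074 bp past the start (ranks 12099 and 14105), likewise listed by replicate 2 alone. Like bli-5, mlt-10 thus had a summit next to its start in the pooled and replicate 2 lists and not in the optimal list.

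At acn-1 (X 5092481 to 5097067, minus strand), 5 optimal summits were found and 4 of them had support among the strongest peaks of both replicates. The leading site, 2087 bp upstream, ranked 157 (signal 1046, X 5098977 to 5099333, intergenic), and stood at ranks 305 and 116 in replicates 1 and 2. A summit ranked as high was found at 0.921% of protein-coding genes, a share not matched for window length. A second site 2989 bp upstream ranked 1184 (signal 370), at ranks 2168 and 1002 in the replicates. These 2 sites lie in the 3975 bp shared with vit-2, a vitellogenin gene transcribed in the other direction, and the vit-2 start is nearer to both than the acn-1 start, so the peaks alone do not assign them to one of the pair.

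Nearer to acn-1 lay a site 1563 bp upstream (rank 7120, signal 85.9), at rank 4862 in replicate 1 and 8375 in replicate 2. It also falls in the 3 kb upstream of vit-2, though the acn-1 start is nearer. The site 531 bp upstream (rank 3212, signal 194) was listed at ranks 8258 and 2165, and the one 746 bp inside the gene (rank 2317, signal 243) at ranks 9692 and 1354. All 3 lie in exons of non-coding genes annotated there. The ACN-1 model of 906 residues held no metalloprotease zinc signature (H and E, 2 residues, H).

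At xrn-2 (II 14155768 to 14166030, plus strand) the only optimal summit lay 1217 bp upstream (rank 1101, signal 390, II 14154383 to 14154718). It is 178 bp from the start of Y48B6A.1, which is transcribed away from xrn-2, and the gene rpl-43, which encodes a ribosomal protein, lies between the site and xrn-2. Replicate 2 listed the site at rank 754, while replicate 1 had no summit within 100 bp. The strongest replicate 1 summit in the window was at another place, 628 bp upstream (rank 10283), and matched a weak pooled summit (rank 11706). The gene body, 10.26 kb long, had no pooled summit apart from one 14 bp past the start (rank 22093).

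Ordered by the best optimal site in their windows, the genes ran mlt-11, acn-1, mlt-9, mlt-8, xrn-2 and mlt-10, with bli-5 unranked. Replicate 2 kept this order except that xrn-2 (754) came before mlt-8 (830). Replicate 1 gave mlt-11 (160), acn-1 (305), mlt-9 (657), mlt-8 (1064) and mlt-10 (5848) in the same order. It did not list the optimal xrn-2 site, and its best summit in that window was another one, 628 bp upstream (rank 10283). At its optimal site xrn-2 therefore has no replicate 1 rank to set against mlt-8 or mlt-10. The first 3 genes came in the same order in both replicates when every site in the window counted. The leading acn-1 site is nearer to the vit-2 start, and the xrn-2 site lies 178 bp from the Y48B6A.1 start. Among summits nearest to a member's own start, the best acn-1 rank was 2317 in the optimal list. That put acn-1 after mlt-9 (498) and mlt-8 (891), and xrn-2 had none.

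A smaller share of these sites than of the whole optimal list was supported in both replicates, a difference that was not tested. A summit within 100 bp among the 8751 strongest peaks of each replicate was found for 12 of the 21, against 75.2% of all optimal peaks. In the whole lists 14 of the 21 had a counterpart in both replicates, against 90.4%. All 7 sites without one were missing from replicate 1 (33.3%, against 8.22% of all optimal peaks), and none was missing from replicate 2. Of the 14 sites listed by both, 11 ranked higher in replicate 2 and 3 in replicate 1, whereas 48.4% of all optimal peaks listed by both ranked higher in replicate 2. By gene, a supported site was found at 5 of the 7 genes, all but bli-5 and xrn-2, and 29.7% of protein-coding genes had one.

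**Figure D2:**
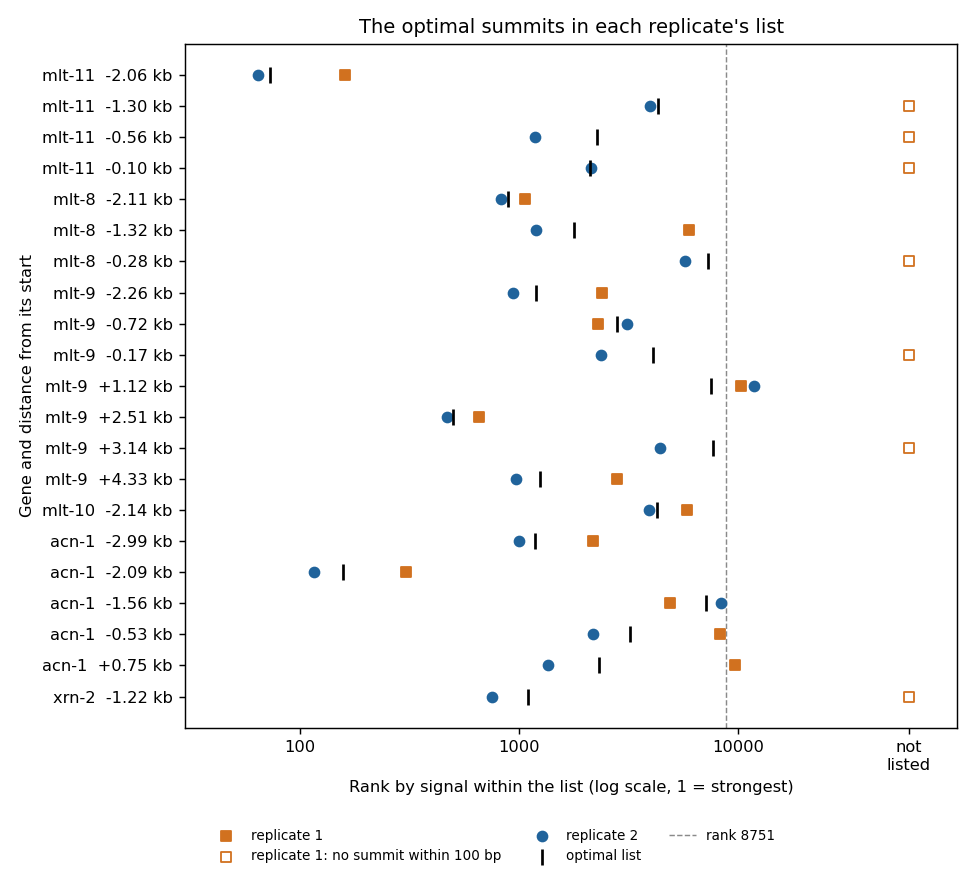
Rank by signal (x axis, log scale, 1 is the strongest) of each of the 21 optimal summits (y axis, gene and distance from its start) in the optimal list (bars), replicate 1 (squares) and replicate 2 (circles); open squares mark sites that replicate 1 did not list within 100 bp, and the dashed line is rank 8751. All 7 open squares belong to replicate 1, 3 of them at mlt-11.

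Pooled entries apart from the optimal sites were present at every one of the 7 genes but were rarely shared between replicates. The pooled list had 40 summits in the windows and reached all 7 genes, against 60.8% of protein-coding genes. Of these, 19 were not within 100 bp of an optimal summit, 4 upstream and 15 inside a gene, with ranks from 9826 to 29160. Their −log10 q-values ran from 0.05 to 1.15, against 2.07 to 3.83 for the 21 optimal summits. As the pooled list includes background, such an entry need not be a site of binding. Both replicates listed 3 of the 19 (15.8%, against 24.9% of the 21249 such pooled peaks in the genome), namely 394 bp inside mlt-8, 841 bp upstream of mlt-10 and 623 bp upstream of xrn-2. Replicate 2 had 51 summits in the windows and replicate 1 had 24. The largest gap was at mlt-11, with 17 summits in replicate 2 and 1 in replicate 1. Most of it came from weak entries. The replicate 2 summits inside the mlt-11 gene had −log10 q-values of 0.08 to 0.91, against 3.93 for those upstream.

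A feature noticed in the values was the distance of the leading upstream site. In 5 genes, mlt-11, acn-1, mlt-8, mlt-10 and mlt-9, the strongest summit within 3 kb upstream lay between 2055 and 2257 bp from the start. At mlt-10 a stronger one lay beyond that limit, 4034 bp upstream. Each of these 5 sites was listed by both replicates. An optimal summit in that narrow range was found at 1.78% of protein-coding genes. The range was drawn around the members' own values after they were seen, so its share is a description and no test. In the range from 2000 to 2300 bp the share was 2.71% of genes, near the 2.77% from 2500 to 2800 bp and below the 12.5% within 300 bp of the start. The acn-1 site of this set is nearer to vit-2, and those of mlt-10, mlt-8 and mlt-9 lie within other annotated genes, so only that of mlt-11 is both intergenic and nearest to the member's start.

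The limit of 3 kb decided a few sites. Just inside it lay the acn-1 site at 2989 bp (rank 1184). Just outside lay mlt-11 sites at 3267 bp (rank 2318) and 4545 bp (rank 861, nearer to W01F3.2), a mlt-9 site at 3362 bp (rank 7016) and a mlt-10 site at 4034 bp (rank 1178). The mlt-10 site just named, in an intron of T27A1.3, is stronger than the one within the window. No such site was found from 3 to 5 kb upstream of bli-5, mlt-8, acn-1 or xrn-2.

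The motif was found at some of the sites and not at others, the strong acn-1 site among the latter. AAAGTGAAA with at most 1 mismatch lay within 75 bp of 9 of the 21 summits (42.9%), against 32.0% of all optimal peaks. Within 150 bp the count was still 9, against 46.9%, so the direction of the difference turned with the window. There was an exact copy within 75 bp of 2 summits, against 5.42%. The exact copies were at mlt-10, with the word's middle base 22 bases before the summit (read along the gene, as are the distances that follow), and at the mlt-11 site nearest the start, 35 bases after it, where 4 matches occurred in all. The strongest mlt-11 and mlt-9 sites each held CAAGTGAAA, 18 bases after and 17 bases before the summit. The leading sites of acn-1 and mlt-8, printed above, held no match in this window, and of the 5 acn-1 sites only the one 531 bp upstream had a match, AAAGAGAAA. At xrn-2 the matches were AAATTGAAA and AAAGAGAAA, which overlap and lie 62 and 68 bases after the summit. The pooled bli-5 site held 3 matches with 1 mismatch each.

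Other short words were counted in the same windows on both strands, as letters only. AGGTCA, the half-site of many nuclear hormone receptors, occurred at 5 of the 21 summits, against 8.96% of all optimal peaks: at mlt-11 563 bp and 102 bp upstream, at mlt-8 2107 bp upstream, at mlt-9 3143 bp inside the gene and at acn-1 1563 bp upstream. TGATAA, a word read by GATA factors, occurred at 3 of the 21, against 18.8%, at mlt-8 280 bp upstream, mlt-9 716 bp upstream and acn-1 746 bp inside the gene. The A+T content around the summits ran from 47.0% to 63.6% with a median of 57.6%, close to the 58.9% of all optimal peaks.

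The 7 genes were set beside other genes of the molt. Of 26 other molting genes, chosen for their known roles and with earlier results in view, 24 (92.3%) had an optimal summit in the window of gene body and 3 kb upstream, and 10 (38.5%) had 3 or more. The median rank of the best summit was 2148.5 over those 24, 694.5 over the 6 members with a summit, and 3602.5 over all protein-coding genes with one. Summits were counted by window here, and the best ones of acn-1 and xrn-2 are nearer to the start of another gene. Median windows were 8301 bp for the 26 genes, 8328 bp for the 7 and 5027 bp for all protein-coding genes. A longer window leaves more room for a high-ranked summit, and these medians were not adjusted for that. The strongest were noah-2, which encodes a matrix protein of the cuticle surface (rank 9), nhr-23, a nuclear hormone receptor needed for molting (rank 24, 6 summits), and qua-1, a hedgehog-related gene (rank 42). They ranked above mlt-11, and noah-1 (rank 79) and nhr-25 (rank 148) came between mlt-11 and acn-1. No optimal summit was found at mlt-2 and mlt-4. The difference between the 7 genes and the 26 others was not tested.

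**Figure D3:**
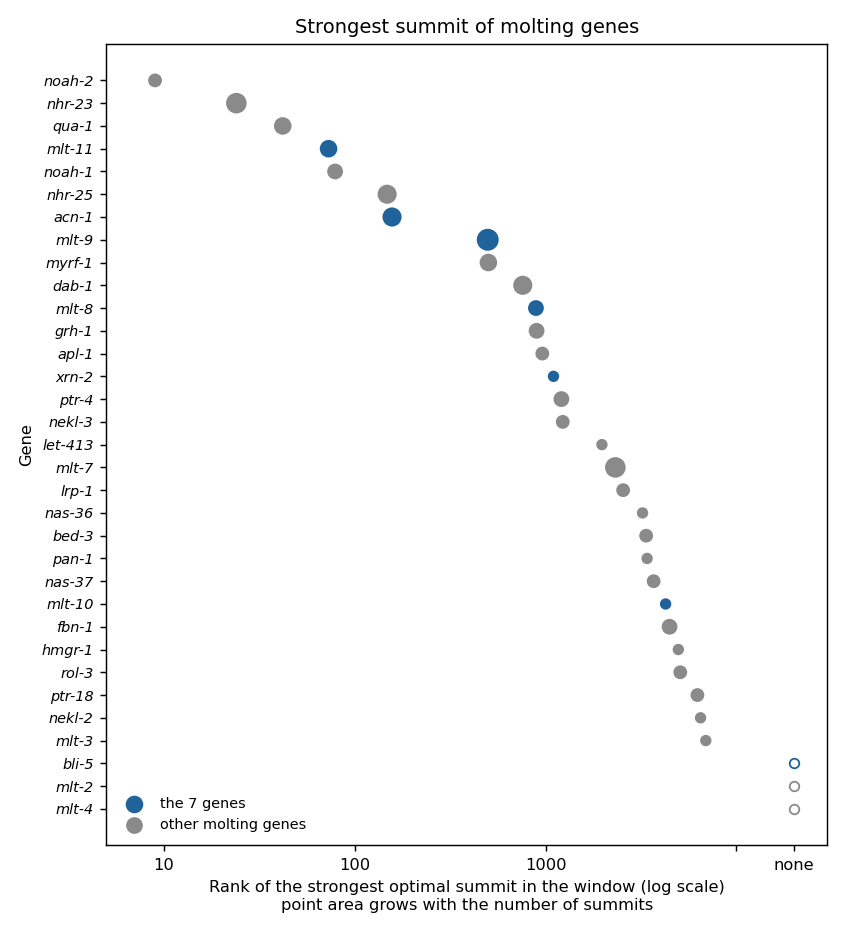
Rank of the strongest optimal summit in the gene body or 3 kb upstream (x axis, log scale, 1 is the strongest) for the 7 genes (blue) and 26 other molting genes (grey), ordered from strongest to weakest on the y axis; point area grows with the number of summits and open points mark genes with none. The 7 genes are scattered through the order, from mlt-11 at rank 73 to bli-5 with none.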

How the data were processed

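Peak lists of a ChIP-seq experiment with 2 biological replicates of 1 group were used. The authors called peaks against a control, on each replicate and on both together, and derived the optimal list by IDR, per the deposited file listings. The peak signal and the −log10 q-value are the deposited values of the authors' caller. The signal served to rank and describe peaks within a list. No source used here names the aligner, the caller or the IDR threshold. Read depth is unknown and no counts were used. The ce10 copies of the lists were not analysed here.

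Summits on ce11 were read as start plus offset, given 1-based, and set against Ensembl release 115 gene models (WBcel235). A replicate supported a summit when it had one within 100 bp, in its whole list or among its 8751 strongest peaks. Motifs were counted within 75 bp on both strands. Proteins were translated from the longest coding model of each gene, in place of a protein table. Every optimal summit of the 7 genes is named, with neighbouring genes where the text describes them. Of the other Kunitz genes, those that share the strongest peaks are named. Of the other molting genes, the 3 with the strongest peaks are named. So are those ranked between mlt-11 and acn-1 and those without an optimal summit. The members and lists were chosen with earlier results of these data known. Since no test was made, no p-value is given. Counting functions were checked on made-up summits with known answers. Alternatives changed the window, the assignment of summits, the peak threshold, the replicate used and the motif settings. Computation used Python 3.11.15, numpy 2.4.6, pandas 2.3.3 and matplotlib 3.10.9.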

Additional observations from a re-analysis of the deposited data

How the results depend on the processing

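The number of genes with a summit stayed between 5 and 7 of 7 under the 10 alternatives. It was 5 without replicate 2, with peaks among the strongest of both replicates and with the nearest start only, where xrn-2 dropped out, 5 with 1.5 kb upstream and near any start, where mlt-10 did, and 7 without replicate 1, where bli-5 gained 1. The 21 summits became 9 from 1500 bp upstream to 500 bp downstream of any start and 12 with peaks among the strongest of both replicates. With a replicate left out they ranged from 11 (without replicate 2) to 23 (without replicate 1). Over the other 6 alternatives they stayed between 14 and 25. Genes with at least 3 summits numbered between 1 and 4 over the 10 alternatives. The 9 sites with a motif match became 2 with exact matches only, and stayed at 9 within 150 bp, where the share of all optimal peaks was 46.9%. Support in both replicates was 12 at match distances of 50 and 200 bp and 14 in the whole lists.

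With a replicate left out, the best rank ran from 64 to 160 for mlt-11, 116 to 305 for acn-1, 468 to 657 for mlt-9, 830 to 1064 for mlt-8, 3904 to 5848 for mlt-10 and 754 to 10283 for xrn-2, the last at another site. The 8 other Kunitz genes with a summit became 14 with 5 kb upstream, 5 near any start, 5 by nearest start and 4 in the stronger 4375 peaks. The 24 other molting genes ran from 18 to 25. The cause of these shifts was not tested. Unknown depth limits what a missing peak in replicate 1 can show. No paired analysis was possible because there is a single group.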
